A study of Mus musculus with 10 samples.

Results

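Adipogenic transcription factors are the DNA-binding proteins that carry a precursor cell through to a lipid-filled adipocyte and then hold it there. The 10 genes described here were chosen by name, from 47937 genes counted in each library, and are *Cebpa*, *Cebpb*, *Cebpd*, *Klf4*, *Klf5*, *Klf15*, *Ebf1*, *Ebf2*, *Zfp423* and *Rxra*. Their expression was measured by mRNA-seq of whole visceral white adipose tissue (WAT) from C57BL/6 mice, either wild type (*Mof*+/+) or heterozygous for *Mof* (*Mof*+/-), the gene of a histone H4 acetyltransferase. On standard diet (SD), 3 *Mof*+/+ and 3 *Mof*+/- libraries came from animals 8 weeks old, and on high-fat diet (HFD), 2 libraries of each genotype came from animals 27 weeks old that had received HFD for 20 weeks by the sample descriptions, although the study's text gives another duration. Diet and age therefore cannot be told apart, and in bulk tissue fewer cells of a type and less RNA per cell cannot be told apart either.

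As background, C/EBPβ and C/EBPδ (*Cebpb*, *Cebpd*) appear early in differentiation and induce C/EBPα (*Cebpa*) and PPARγ, which sustain each other and the genes of the mature adipocyte. Of the Krüppel-like factors, KLF4 acts early and upstream of *Cebpb*, KLF5 acts between the early C/EBPs and PPARγ, and KLF15 is a glucocorticoid-responsive factor of later stages and of the mature cell. ZFP423 and the early B-cell factors EBF1 and EBF2 mark committed precursors, EBF2 being known mainly for beige and brown lineages, and RXRα (*Rxra*) is the partner with which PPARγ binds DNA.

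Promoter sequences are shown for *Ebf1*, which passed the test between the diets in *Mof*+/+, and for *Cebpa* and *Cebpb*, which did not pass it. Each is the RefSeq window of GRCm38.p6 from 250 bases before to 50 after a transcription start, 5′ to 3′ on the plus strand, chr11:44619978-44620277 for *Ebf1* (the downstream of 2 listed starts), chr7:35119043-35119342 for *Cebpa* and chr2:167688665-167688964 for *Cebpb*. Capitals mark, on either strand, CACCC (a core of Krüppel-like factor sites) and TGACG (a core of cyclic AMP response elements) in *Ebf1*, TATAAA and CACCC in *Cebpa*, and TATAAA and TGACG in *Cebpb*.
Ebf1: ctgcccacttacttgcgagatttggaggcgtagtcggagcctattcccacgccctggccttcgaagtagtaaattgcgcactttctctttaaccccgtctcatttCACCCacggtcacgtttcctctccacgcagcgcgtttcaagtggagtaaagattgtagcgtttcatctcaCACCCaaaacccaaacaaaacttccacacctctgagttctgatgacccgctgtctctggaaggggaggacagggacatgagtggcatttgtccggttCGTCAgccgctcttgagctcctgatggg
Cebpa: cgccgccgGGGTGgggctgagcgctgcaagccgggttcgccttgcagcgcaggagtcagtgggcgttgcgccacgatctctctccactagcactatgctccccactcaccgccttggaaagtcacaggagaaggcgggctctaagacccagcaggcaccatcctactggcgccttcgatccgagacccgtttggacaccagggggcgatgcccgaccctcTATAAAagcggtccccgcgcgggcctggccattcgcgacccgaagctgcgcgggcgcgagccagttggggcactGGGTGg
Cebpb: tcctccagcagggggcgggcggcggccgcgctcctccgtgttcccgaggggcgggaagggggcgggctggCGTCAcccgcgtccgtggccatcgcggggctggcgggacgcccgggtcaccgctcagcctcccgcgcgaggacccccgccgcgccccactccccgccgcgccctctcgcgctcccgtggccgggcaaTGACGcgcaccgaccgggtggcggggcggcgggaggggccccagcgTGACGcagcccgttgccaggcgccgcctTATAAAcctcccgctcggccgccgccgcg

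The *Cebpa* window holds TATAAA with its first base at -30 from the start, where 13.6% of the 32851 RefSeq windows of this length hold that hexamer on either strand. The *Ebf1* window holds CACCC at -145 and -75, a motif found in 57.5% of all windows, and TGACG on the reverse strand at 23. *Cebpb* has TGACG at -180 (reverse strand), -53 and -7, where 20.8% of all windows hold at least 1 copy, and the match at -180 shares 2 bases with a CACCC match on the forward strand. Its TATAAA lies at 22, downstream of the listed start. A match describes letters in a window and not a bound site. GC content was 53.0% in this *Ebf1* window, 67.3% in that of *Cebpa* and 80.7% in that of *Cebpb*. Windows were listed for 7 of the 10 genes, without *Cebpd*, *Klf5* and *Ebf2*.

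The total count on genes ran from 1044355 to 17171947 per library. *Mof*, listed as *Kat8*, was at 20.4 to 21.5 CPM (the count of a gene scaled to its library's total on genes) in SD *Mof*+/+, 11.5 to 18.8 CPM in SD *Mof*+/-, and 18.1 and 19.2 CPM in HFD *Mof*+/+. In HFD *Mof*+/- it was at 20.1 CPM in replicate 1, within the range of the *Mof*+/+ libraries, and at 10.5 CPM in replicate 2. After scaling the libraries by edgeR's TMM factors, its log2 fold change between genotypes on SD was -0.22 (SE 0.35, adjusted p = 0.736 by edgeR's quasi-likelihood test). All 3 SD *Mof*+/- libraries held *Xist* (46.1 to 139 CPM) and no count of the Y-linked genes *Ddx3y*, *Eif2s3y*, *Kdm5d* and *Uty*, whereas the other 7 had no *Xist* count and did have Y-linked counts. The study's methods describe male mice, and genotype on SD, diet in *Mof*+/- and the genotype by diet interaction cannot be told apart from this pattern. HFD *Mof*+/- replicate 1 stood apart in depth, with the lowest total, in its skeletal muscle markers (14 markers summing to 72467 CPM, against 1764 CPM in replicate 2 and at most 91.3 CPM elsewhere) and in its mitochondrial share of 26.9%. The headings inside the files of the third SD libraries name the opposite genotype, and groups follow the sample labels. By label, SD *Mof*+/+ replicate 3 had *Kat8* at 20.4 CPM, Y-linked counts and no *Xist* count. SD *Mof*+/- replicate 3 had *Kat8* at 11.5 CPM, *Xist* at 58.0 CPM and no Y-linked count. The *Xist* and Y-linked counts were thus those of the labelled groups, and an exchange, tried below, mixes libraries with and without *Xist* in each SD group. All 8 adipocyte markers were detected in every group.

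The factors spanned more than 3 orders of magnitude when counts were divided by the length of the annotated exons. In SD *Mof*+/+, the level, as CPM per kb of exon, was 281 ± 91.6 (SD, n = 3) for *Cebpa*, 40.7 ± 9.48 for *Rxra*, 27.6 ± 11.8 for *Cebpb*, 20.3 ± 8.66 for *Klf15*, 17.2 ± 5.56 for *Klf4*, 14.5 ± 1.90 for *Ebf1*, 7.16 ± 1.67 for *Zfp423*, 7.06 ± 1.52 for *Cebpd*, 5.46 ± 1.22 for *Ebf2* and 0.148 ± 0.138 for *Klf5*. Neighbours in this order were separated by more than their SDs only below *Cebpa*, below *Ebf1* and below *Ebf2*. *Cebpa* stood at percentile 99.2 of the 15423 protein-coding genes with a count in this group and *Klf5* at percentile 6.04. *Cebpa* was first in all 4 groups, at 269 ± 41.1 (n = 3) in SD *Mof*+/-, 158 ± 26.2 (n = 2) in HFD *Mof*+/+ and 232 ± 218 (n = 2) in HFD *Mof*+/-. *Rxra* was second in SD *Mof*+/+ by its mean, with an interval of mean ± SD that overlapped that of *Cebpb*. *Cebpb* was second in the other 3 groups, apart from the next gene by more than the SDs in HFD *Mof*+/+ (49.8 ± 4.44 against 24.2 ± 3.47 for *Rxra*, n = 2 each) and not in the other 2.

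**Figure D1:**
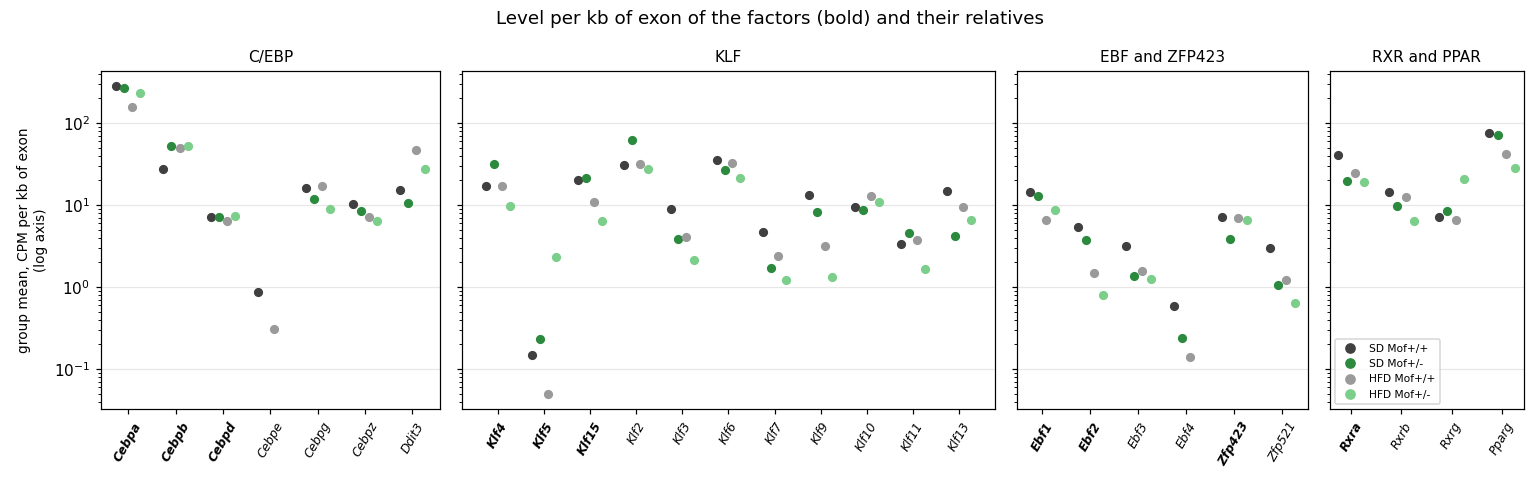
Group means of CPM per kb of exon (log axis) for the 10 factors in bold and for their relatives, with a point for each genotype and diet and no error shown. *Cebpa* lies at 281 in SD *Mof*+/+ and *Klf5* at 0.148, and a group mean of 0 has no point.

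Relatives of the factors that were fixed by family were spread around them. *Pparg*, the master regulator of the adipocyte, had a mean level of 75.3 per kb of exon in SD *Mof*+/+, between *Cebpa* and *Rxra*. *Klf6* (35.1) and *Klf2* (30.8) had higher mean levels per kb there than *Klf4* or *Klf15*, and *Cebpg* (16.2) a higher one than *Cebpd*. *Cebpe*, a factor of granulocytes, was at 0 counts in both *Mof*+/- groups and in SD *Mof*+/+ replicates 1 and 2. It had 25 counts in SD *Mof*+/+ replicate 3, and 7 and 5 counts in HFD *Mof*+/+. *Ebf3* was at 3.12 per kb in SD *Mof*+/+ and *Ebf4* at 0.583.

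Between the genotypes on SD, none of the 9 factors tested passed the adjusted threshold of 0.05 (edgeR's quasi-likelihood test), where 5.24% of the 13864 genes tested did. DESeq2 also called 0 of them, where it called 15.9% of all genes. At an unadjusted p under 0.05, 3 of 9 passed, *Cebpb* and *Klf4* higher and *Rxra* lower in *Mof*+/-, against 25.7% of all genes. After TMM scaling, ranges of the groups did not overlap for 0 of the 9, against 35.6% of all genes. TMM scaling, set by the bulk of genes, raised *Mof*+/- over *Mof*+/+ by 0.36 on the log2 scale here and by 0.33 on HFD, and raised HFD over SD by 0.13 in *Mof*+/+.

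Between the genotypes on HFD, 0 of 9 passed, the same as the 0.0% of all 14120 genes, and 0 of 9 passed unadjusted, where 12.3% of all genes did. DESeq2 called 0 of the factors here too, and 1.48% of all genes. The ranges of *Cebpd* and *Ebf1* did not overlap, both higher in *Mof*+/-, 2 of 9 against 50.1% of all genes in either direction and 14.9% higher. For HFD against SD in *Mof*+/+, 2 of 9 passed, *Ebf1* and *Ebf2*, both lower on HFD, against 9.75% of 14939 genes in either direction and 3.73% lower. Unadjusted, 4 of 9 passed (28.4% of all genes), and 5 of 9 did not overlap (49.2%).

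For HFD against SD in *Mof*+/-, 0 of 10 passed (0.0% of 13610 genes), also with DESeq2 (2.95% of all genes), and 0 of 10 at an unadjusted p under 0.05 (8.57%). Ranges did not overlap for 4 of 10, against 29.3% of all genes. The genotype by diet interaction, which asks whether the diet difference differs between the genotypes, called 0 of 10 factors with edgeR and with DESeq2 (0.0881% of 15897 genes with edgeR and 3.09% with DESeq2), and 0 of 10 at an unadjusted p under 0.05 (12.4%). *Klf5* passed the filter on low counts in the last 2 fits only. The *Mof*+/+ libraries of SD serve in the first and the third comparison, and these are therefore not independent.

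**Figure D2:**
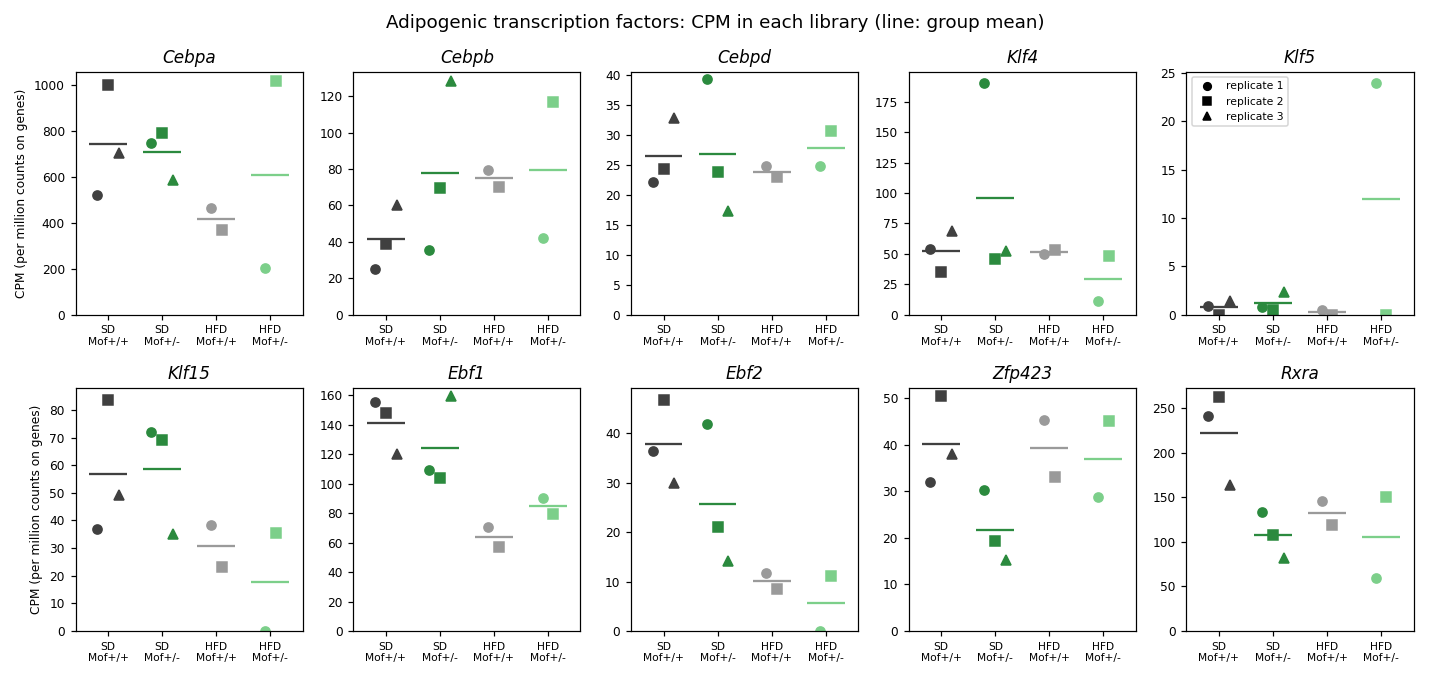
CPM of each factor (linear axes from 0, each with its own scale) in the 10 libraries by genotype and diet, with 1 symbol per replicate number and a line at the group mean. *Ebf1* and *Ebf2* on HFD lie below all the SD libraries of *Mof*+/+, and the replicates of HFD *Mof*+/- lie far apart for *Cebpa*, *Cebpb* and *Klf5*.

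*Cebpa* (ENSMUSG00000034957.10, GRCm38 chromosome 7, 35119293 to 35121928) was at 520, 999 and 706 CPM in SD *Mof*+/+ and 750, 790 and 585 CPM in SD *Mof*+/-. On HFD it was at 466 and 369 CPM in *Mof*+/+ and at 204 and 1017 CPM in *Mof*+/-. Both HFD *Mof*+/+ values lay below every SD *Mof*+/+ value, and the HFD *Mof*+/- values lay outside the range of HFD *Mof*+/+ on opposite sides. The diet log2 fold change in *Mof*+/+ was -0.71 (standard error, SE, 0.31, adjusted p = 0.183), and -0.42 without SD *Mof*+/+ replicate 2. Its partner *Pparg* was at 150 to 267 CPM on SD and at 142 and 106 CPM on HFD in *Mof*+/+ (log2 fold change -0.72, SE 0.30, adjusted p = 0.164). On SD, *Cebpa* had a log2 fold change of 0.28 between genotypes (SE 0.29, adjusted p = 0.583), while its mean CPM before TMM scaling was lower in *Mof*+/- (708 against 742). Leaving out a library moved it from 0.0892 (without SD *Mof*+/+ replicate 1) to 0.58 (without replicate 2). On HFD the log2 fold change between genotypes was 0.80 (SE 0.73, adjusted p = 0.798). Without HFD *Mof*+/- replicate 1 it was 1.45 and without replicate 2 it was -0.64, the extremes over the settings tried, so 1 library set its direction. Each of these fits leaves a lone HFD *Mof*+/- library, which has no spread of its own.

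*Cebpb* (ENSMUSG00000056501.3, chromosome 2, 167688915 to 167690418), induced within hours of an adipogenic stimulus and also by inflammatory signals, was at 25.3, 38.6 and 60.4 CPM in SD *Mof*+/+ and 35.8, 69.4 and 128 CPM in SD *Mof*+/-. On HFD it was at 79.7 and 70.2 CPM in *Mof*+/+ and at 42.1 and 117 CPM in *Mof*+/-. The SD genotypes overlapped, and both HFD *Mof*+/+ values were above all 3 SD *Mof*+/+ values. The log2 fold change of *Mof*+/- over *Mof*+/+ on SD was 1.31 (SE 0.50, adjusted p = 0.148). It was 0.66 without SD *Mof*+/- replicate 3, 0.67 after correction for transcript length and -0.34 with the third SD libraries exchanged as their headings have it, and adjusted p ranged from 0.0254 to 1 over the settings. HFD over SD in *Mof*+/+ gave 0.98 (SE 0.33, adjusted p = 0.110), with 0.0361 after that exchange and 1.34 without SD *Mof*+/+ replicate 3 (adjusted p = 0.0258, in a range of 0.0258 to 0.998). Of the exon bases of *Cebpb*, 20.7% also belong to *Tmem189* on the opposite strand, and the library kit does not keep strand. *Tmem189* had a log2 fold change of 1.08 in the same diet comparison (SE 0.24, adjusted p = 0.0375), and its part in the *Cebpb* value was not tested.

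*Cebpd* (ENSMUSG00000071637.4, chromosome 16, 15887286 to 15891031), the other early C/EBP, varied least. It was at 22.1, 24.4 and 32.9 CPM in SD *Mof*+/+ and 39.4, 23.8 and 17.2 CPM in SD *Mof*+/-. On HFD it was at 24.9 and 22.9 CPM in *Mof*+/+ and at 24.9 and 30.7 CPM in *Mof*+/-. All groups overlapped in plain CPM except the genotypes on HFD, whose nearest values both round to 24.9 CPM. The log2 fold changes ran from -0.0207 (diet in *Mof*+/+) to 0.54 (genotype on HFD, SE 0.53, adjusted p = 0.811). *Spidr*, on the opposite strand, shares 15.0% of its exon bases.

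Read against each other within a library, *Cebpa* exceeded *Cebpb* per kb of exon by 11.7, 14.8 and 6.67 times in SD *Mof*+/+ and by 3.34 and 2.99 times in HFD *Mof*+/+. The diets did not overlap in *Mof*+/+, with a log2 difference of the ratio of -1.73 (exact two-sided permutation test, p = 0.2, the smallest that 3 against 2 libraries allow), and overlapped with the third SD libraries exchanged (-1.28). In *Mof*+/- the ratio was 11.9, 6.49 and 2.61 on SD and 2.76 and 4.96 on HFD, and the diets overlapped (-0.66). With the third SD libraries exchanged they did not overlap (-1.12). A ratio within a library does not depend on scaling, and these ratios were chosen after the values were seen, as 14 comparisons of 4 ratios, none under 0.467 after adjustment.

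*Cebpa* relative to *Adipoq*, the adiponectin gene and one of its targets, was 0.128, 0.163 and 0.141 per kb in SD *Mof*+/+ and 0.0663, 0.0692 and 0.0508 in SD *Mof*+/-. Every *Mof*+/- value lay below every *Mof*+/+ value (log2 difference -1.22, exact two-sided permutation p = 0.1, the smallest possible here). With the third SD libraries exchanged as their headings have it, the groups overlapped (-0.24). *Adipoq* itself was higher in *Mof*+/- on SD, with a log2 fold change of 1.53 (SE 0.27, adjusted p = 0.0301). On HFD the ratio was 0.0972 and 0.0970 in *Mof*+/+ and 0.122 and 0.143 in *Mof*+/-.

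**Figure D3:**
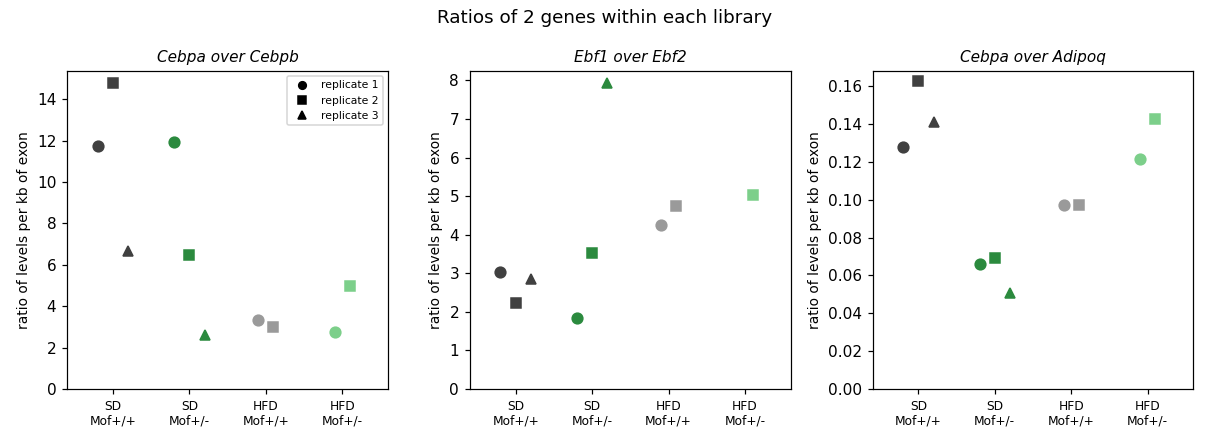
Ratio of the levels per kb of exon of 2 genes within each library (linear axes from 0), by genotype and diet, with 1 symbol per replicate number. *Cebpa* over *Cebpb* lies between 6.67 and 14.8 in SD *Mof*+/+ and at 3.34 and 2.99 in HFD *Mof*+/+, and *Ebf1* over *Ebf2* has no point in HFD *Mof*+/- replicate 1, where *Ebf2* had no count.

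*Klf4* (ENSMUSG00000003032.8, chromosome 4, 55527143 to 55532466) was at 54.4, 34.8 and 68.5 CPM in SD *Mof*+/+ and 191, 45.9 and 52.1 CPM in SD *Mof*+/-. On HFD it was at 49.9 and 53.3 CPM in *Mof*+/+ and at 11.5 and 48.1 CPM in *Mof*+/-. SD *Mof*+/- replicate 1 was the only library above 68.5 CPM, and the other 2 lay within the SD *Mof*+/+ range. The log2 fold change between genotypes on SD was 1.21 (SE 0.53, adjusted p = 0.189) and was 0.30 (adjusted p = 0.606) without that library, in a range of adjusted p from 0.0414 to 1 over the settings. The same library had the highest *Fos*, an immediate-early gene, at 811 CPM against 313 and 335 CPM in the other 2. The part of such a response in the *Klf4* value was not tested. HFD over SD gave 0.10 (SE 0.28) in *Mof*+/+, turning to -0.12 without SD *Mof*+/+ replicate 2. In *Mof*+/- it gave -1.68 (SE 0.80, adjusted p = 0.617), with -1.10 without HFD *Mof*+/- replicate 1 and -0.78 without SD *Mof*+/- replicate 1.

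*Klf5* (ENSMUSG00000005148.7, chromosome 14, 99298691 to 99315036) was close to absent outside 1 library. It had 7, 0 and 11 counts in SD *Mof*+/+, 13, 5 and 16 in SD *Mof*+/-, and 8 and 0 in HFD *Mof*+/+, at most 2.38 CPM. HFD *Mof*+/- replicate 1 had 25 counts (23.9 CPM, 95% exact Clopper-Pearson interval 15.5 to 35.3 CPM) and replicate 2 had 0 (the same interval reaches 0.667 CPM). The 25 counts came from the library with the skeletal muscle markers, and the part of those cells was not tested. The log2 fold change of HFD over SD in *Mof*+/- was 3.34 (SE 2.04, adjusted p = 0.691) and turned negative without that library.

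*Klf15* (ENSMUSG00000030087.11, chromosome 6, 90462576 to 90475238) was at 37.0, 83.7 and 49.3 CPM in SD *Mof*+/+ and 71.9, 69.3 and 35.1 CPM in SD *Mof*+/-. On HFD it was at 38.2 and 23.2 CPM in *Mof*+/+ and at 35.6 CPM in *Mof*+/- replicate 2, with 0 counts in replicate 1, where 3 counts, the floor, equal 2.87 CPM. SD genotypes overlapped throughout, and 1 of the HFD *Mof*+/+ values lay just above the lowest SD *Mof*+/+ value. The diet log2 fold change was -0.76 in *Mof*+/+ (SE 0.40, adjusted p = 0.255) and -1.69 in *Mof*+/- (SE 1.12, adjusted p = 0.728). The first was -0.36 without SD *Mof*+/+ replicate 2 and -0.44 without HFD *Mof*+/+ replicate 2. Without HFD *Mof*+/- replicate 1 the latter was -0.83 (adjusted p = 0.697), and adjusted p ranged from 0.0201 to 1 over the settings.

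*Ebf1* (ENSMUSG00000057098.14, chromosome 11, 44617317 to 45008091) fell with HFD in *Mof*+/+. It was at 156, 148 and 120 CPM on SD and at 70.3 and 56.8 CPM on HFD, 2.04-fold lower after TMM scaling (log2 fold change -1.03, SE 0.21, adjusted p = 0.0296). Every HFD value lay below every SD value by a wide margin. In *Mof*+/- it was at 109, 104 and 160 CPM on SD and 90.0 and 79.5 CPM on HFD, also without overlap but with a smaller log2 fold change of -0.56 (SE 0.44, adjusted p = 0.784), which was -0.27 without SD *Mof*+/- replicate 3 and 0.33 with length and a replicate block. The interaction was 0.46 (SE 0.46, adjusted p = 0.721), so a difference between the genotypes in this diet change was not detected. Genotypes on SD overlapped, with a log2 fold change of 0.19 (SE 0.28, adjusted p = 0.709), while plain mean CPM was lower in *Mof*+/- (124 against 141). The direction turned without SD *Mof*+/- replicate 3 (-0.0861) and with the third SD libraries exchanged (-0.46), and correction for transcript length gave 0.86. On HFD both *Mof*+/- values were above both *Mof*+/+ values (0.76, SE 0.34, adjusted p = 0.519), with 0.49 without HFD *Mof*+/- replicate 1 and 1.47 after correction for length.

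*Ebf2* (ENSMUSG00000022053.13, chromosome 14, 67233292 to 67430918) fell further. It was at 36.5, 46.8 and 30.1 CPM in SD *Mof*+/+ and at 11.8 and 8.49 CPM in HFD *Mof*+/+, 3.43-fold lower after TMM scaling (log2 fold change -1.78, SE 0.32, adjusted p = 0.0230). The lowest SD value was more than 2 times the highest HFD value. In *Mof*+/- it was at 41.9, 21.0 and 14.3 CPM on SD, and on HFD at 11.2 CPM in replicate 2 with 0 counts in replicate 1 (floor 2.87 CPM). That gave a diet log2 fold change of -2.10 (SE 1.20, adjusted p = 0.670), and -1.31 (adjusted p = 0.661) without replicate 1, where adjusted p over the settings ran from 0.0347 to 1. Per kb of exon, *Ebf1* exceeded *Ebf2* by 3.03, 2.24 and 2.84 times in SD *Mof*+/+ and by 4.25 and 4.75 times in HFD *Mof*+/+ (log2 difference of the ratio 0.74, exact two-sided permutation p = 0.2, the smallest possible), which overlapped with the third SD libraries exchanged (0.25).

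The direction of both EBF genes in *Mof*+/+ was kept under all 16 other settings, with log2 fold changes from -1.33 to -0.74 for *Ebf1* and from -2.00 to -1.55 for *Ebf2*. The calls were less steady. Longer transcripts had lower log2 fold changes in this comparison (Spearman rho -0.31 over 14898 genes, which are not independent replicates), and correcting for length ended the call of *Ebf1* (-0.74, adjusted p = 0.0677), and so did leaving out SD *Mof*+/+ replicate 1 or 2 or either HFD library, with adjusted p over all settings from 0.000163 to 0.340. That of *Ebf2* was lost without SD *Mof*+/+ replicate 1 (adjusted p = 0.0692) or either HFD library, in a range from 5.68e-05 to 0.433. Both were lost with the third SD libraries exchanged and with all 10 libraries in the fit.

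**Figure D4:**
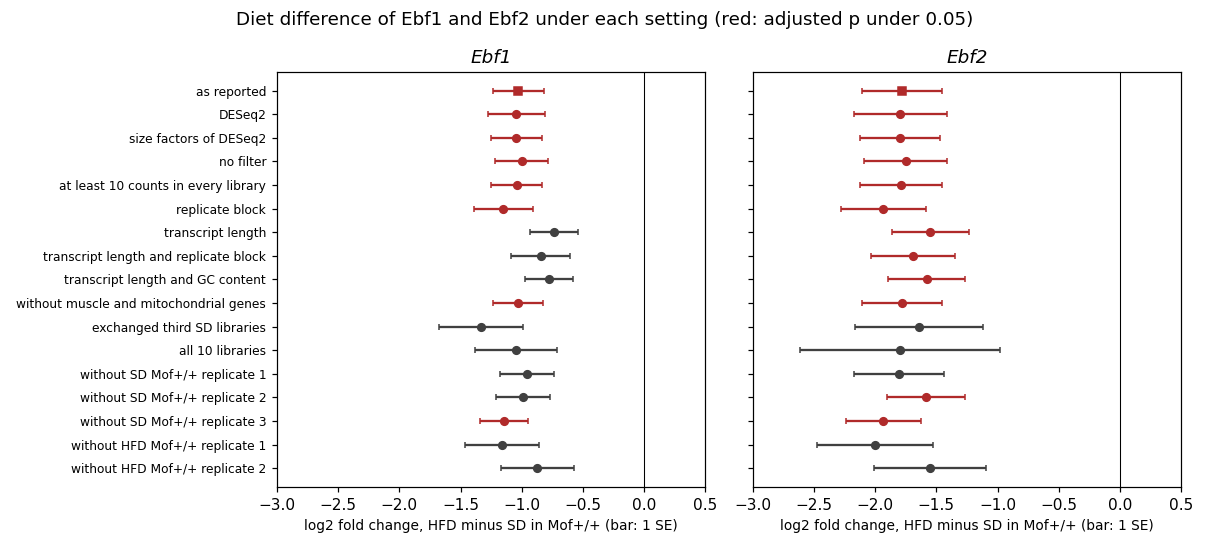
Log2 fold change of HFD over SD in *Mof*+/+ (bars, 1 SE) for *Ebf1* and *Ebf2* as reported (square) and under each other setting (circles), red where the adjusted p is under 0.05. All values lie below 0, between -1.33 and -0.74 for *Ebf1* and between -2.00 and -1.55 for *Ebf2*.

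Marker sums of cell types moved beside this diet difference. From SD to HFD in *Mof*+/+, 10 macrophage markers summed to 1152 to 1979 CPM and then to 5560 and 7727 CPM, and 8 endothelial markers to 1163 to 2925 CPM and then to 456 and 568 CPM. The sum of 10 progenitor markers, 2833 to 3980 CPM on SD and 2839 and 2913 CPM on HFD, overlapped between the diets. That of 8 adipocyte markers was 29240 to 35831 CPM on SD and 24365 and 27671 CPM on HFD, but these markers did not share a direction. Among them *Cfd* fell, from 9901 to 12413 CPM on SD to 624 and 533 CPM on HFD. *Fabp4* (8001 to 9721 CPM and then 11972 and 12301 CPM) and *Lep* (634 to 1812 CPM and then 6211 and 4599 CPM) rose. Of other lists, 8 pericyte and smooth muscle markers summed to 815 to 1309 CPM on SD and to 590 and 479 CPM on HFD, and 6 brown adipocyte markers to 22.4 to 58.6 CPM and then to 16.9 and 14.7 CPM, both without overlap. Glial markers were at 87.7 to 1021 CPM on SD and at 52.8 and 55.3 CPM on HFD, and the mitochondrial share of counts was 6.26 to 8.82% and then 4.23 and 3.13%, also without overlap. The part of these cell types, and of the mitochondrial share, in the *Ebf1* and *Ebf2* values was not tested.

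*Zfp423* (ENSMUSG00000045333.15, chromosome 8, 87661810 to 87959595), the factor of preadipocyte commitment, did not follow the EBF genes. It was at 32.1, 50.4 and 38.1 CPM in SD *Mof*+/+ and at 45.3 and 33.2 CPM in HFD *Mof*+/+, overlapping (log2 fold change 0.0862, SE 0.27, adjusted p = 0.872, and plain mean CPM 39.2 against 40.2), and the direction turned without SD *Mof*+/+ replicate 1 (-0.0522) or HFD *Mof*+/+ replicate 1 (-0.13). In *Mof*+/- it was at 30.3, 19.3 and 15.3 CPM on SD and 28.7 and 45.0 CPM on HFD (0.77, SE 0.55, adjusted p = 0.756). In plain CPM all 3 SD *Mof*+/- values lay below the SD *Mof*+/+ values, but after TMM scaling the groups overlapped, with a log2 fold change of -0.54 (SE 0.33, adjusted p = 0.343). That value was -0.14 after correction for transcript length, -0.00732 for length and GC content and -0.0833 with the third SD libraries exchanged, and ran from -0.83 without SD *Mof*+/- replicate 1 to -0.33 without SD *Mof*+/+ replicate 2.

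*Rxra* (ENSMUSG00000015846.14, chromosome 2, 27676440 to 27762957) was at 241, 262 and 164 CPM in SD *Mof*+/+ and 133, 108 and 81.8 CPM in SD *Mof*+/-. On HFD it was at 146 and 119 CPM in *Mof*+/+ and at 59.4 and 151 CPM in *Mof*+/-. SD *Mof*+/+ stood above all other libraries in plain CPM. Between genotypes on SD the log2 fold change was -0.70 (SE 0.27, adjusted p = 0.151), and the groups overlapped after TMM scaling. Longer transcripts had lower log2 fold changes in this comparison too (Spearman rho -0.46 over 13832 genes), and the value was -0.28 after correction for length, -0.13 for length and GC content, and -0.44 with the third SD libraries exchanged. The diet log2 fold change in *Mof*+/+ was -0.63 (SE 0.25, adjusted p = 0.160), and leaving out SD *Mof*+/+ replicate 3 made it -0.82 (adjusted p = 0.0411, in a range from 0.0411 to 0.870 over the settings), while length and GC content made it -0.37. In *Mof*+/- the diets overlapped (-0.0547, SE 0.46, adjusted p = 0.987), with a direction that turned between 0.37 without HFD *Mof*+/- replicate 1 and -0.75 without replicate 2. Relative to *Rxrb*, per kb of exon, *Rxra* was 2.73, 3.97 and 1.99 in SD *Mof*+/+ and 2.04, 2.12 and 1.98 in SD *Mof*+/-, which overlapped. The HFD ratios were 2.44 and 1.57 in *Mof*+/+ and 5.64 and 2.57 in *Mof*+/-, without overlap between these genotypes (log2 difference 0.96, with 0.39 without HFD *Mof*+/- replicate 1 and 1.52 without replicate 2) or between the diets in *Mof*+/- (0.89, with 0.33 and 1.46), where the exact two-sided permutation p was the smallest possible in each (0.333 and 0.2).

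Between the genotypes on HFD the remaining factors had log2 fold changes of -0.50 (*Klf4*, SE 0.67), -0.51 (*Klf15*, SE 1.58), -0.54 (*Ebf2*, SE 1.72), 0.38 (*Cebpb*, SE 0.48), 0.23 (*Zfp423*, SE 0.44) and -0.0428 (*Rxra*, SE 0.44), none past the threshold. For *Zfp423* plain mean CPM had the opposite order (36.9 in *Mof*+/- against 39.2). Without HFD *Mof*+/- replicate 1, 2 factors were called, *Cebpa* and *Cebpb* (0.81), both higher, 2 of 9 where 27.2% of all genes were called. Without replicate 2, 5 of these 9 were called, with *Klf4* (-1.77), *Rxra* (-0.76), *Klf15* and *Ebf2* lower and *Ebf1* (0.89) higher, where 47.9% of all genes were called. *Klf5* was called there as well, but it passed the filter on low counts in this comparison only through replicate 1, the library where it was high, and is not read as a difference. The sign of 7 of the 9 factors differed between these fits, and *Cebpd* and *Ebf1* were higher in *Mof*+/- in both. In each of these fits the lone HFD *Mof*+/- library is assumed to vary like the others.

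**Figure D5:**
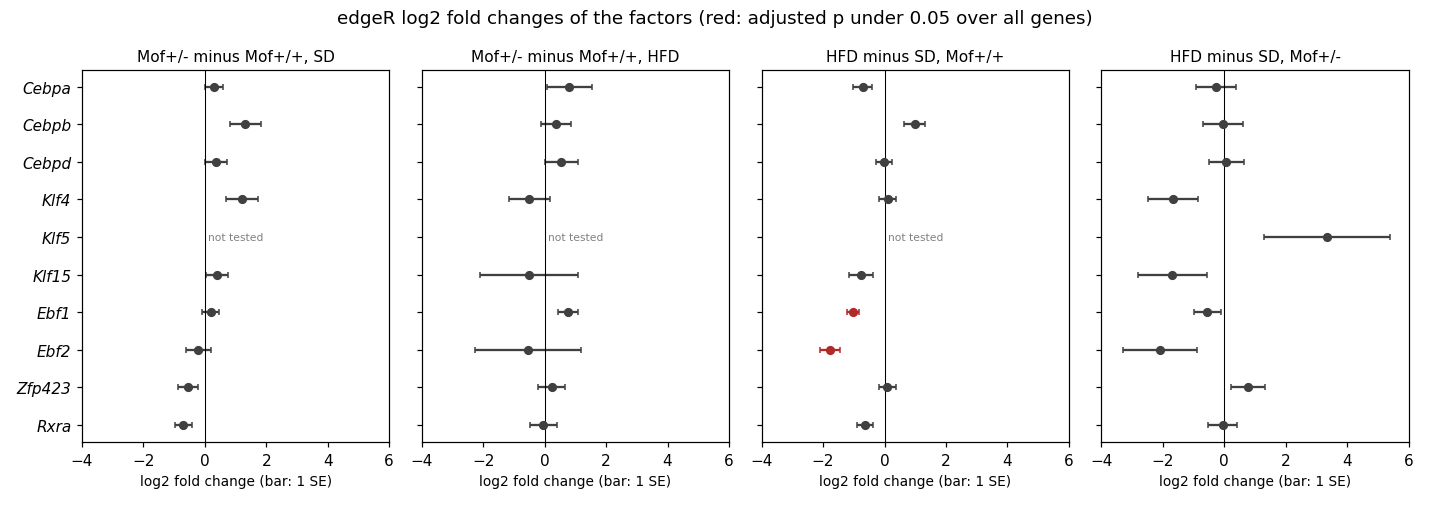
Log2 fold changes from edgeR (points) with 1 SE (bars) of each factor in the 4 comparisons, red where the adjusted p over all genes is under 0.05. The red points are *Ebf1* at -1.03 and *Ebf2* at -1.78 in HFD minus SD of *Mof*+/+, and *Klf5* was not tested in 3 of the 4.

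Among 17 relatives of the factors, 16 were tested on SD between the genotypes and 1 passed (5.24% of all genes), being lower in *Mof*+/-, *Klf13* (113 ± 16.3 CPM in *Mof*+/+ and 32.0 ± 14.8 CPM in *Mof*+/-, n = 3 each, log2 fold change -1.47, adjusted p = 0.0429). That call was lost with each of the 6 libraries left out except SD *Mof*+/- replicate 1, and the value was -0.26 with the third SD libraries exchanged. It was also lost with a replicate block (-1.54, adjusted p = 0.0631) and with all 10 libraries in the fit (-1.46, adjusted p = 0.192). Correction for transcript length (-0.95, adjusted p = 0.0646) or for length and GC content (-0.84, adjusted p = 0.0804) ended it too. For HFD against SD in *Mof*+/+, 3 of 16 passed, where 9.75% of all genes did. *Klf9*, a glucocorticoid-induced factor, fell by 1.94 on the log2 scale (63.8 ± 4.39 CPM on SD, n = 3, and 15.3 ± 7.10 CPM on HFD, n = 2, adjusted p = 0.0169). *Klf3*, a repressor of adipogenesis, fell by 0.99 (adjusted p = 0.0377), a call that was lost with a replicate block (-0.86, adjusted p = 0.0728). *Ddit3*, the stress-induced C/EBP relative that inhibits the others, rose by 1.73 (26.4 ± 6.05 to 80.5 ± 11.4 CPM, adjusted p = 0.0123). None of the 15 relatives tested with edgeR passed between genotypes on HFD or between diets in *Mof*+/-, where 0.0% of all genes did.

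Of 20 other positive regulators of adipogenesis, 19 were tested in *Mof*+/+ between the diets, where 1 rose and 3 fell (9.75% of all genes passed), with a median log2 fold change of -0.33 against -0.0449 over all genes. *Egr2* (Krox20), an early factor, rose from 4.99 ± 3.37 to 43.9 ± 15.9 CPM (log2 fold change 3.27, adjusted p = 0.0299). *Zbtb16* fell by 2.52 (adjusted p = 0.0274), *Srebf1*, of lipogenesis, by 1.79 (adjusted p = 0.0202), and *Nr3c1*, the glucocorticoid receptor, by 1.15 (223 ± 19.1 to 92.2 ± 3.73 CPM, adjusted p = 0.0150). Of 19 negative regulators tested, with a lower median log2 fold change (-0.54), 2 fell, *Foxo1* (log2 fold change -1.18, adjusted p = 0.0295) and the corepressor gene *Ncor1* (-0.84, adjusted p = 0.0329). The call of *Ncor1* was lost with a replicate block (-0.81, adjusted p = 0.0865). Of 14 glucocorticoid-responsive genes, 3 fell and 2 rose, with *Fkbp5*, a feedback regulator of the receptor, falling by 2.05 (adjusted p = 0.0107) and *Cdkn1a*, a cell cycle inhibitor, rising by 1.55 (adjusted p = 0.0111). *Zbtb16* and *Klf9* stand in that list as well.

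Adipocyte genes that the factors are known to activate went in both directions between the diets in *Mof*+/+, with 2 of 21 rising and 4 falling (9.75% of all genes passed, median log2 fold change -0.71). *Cfd*, the gene of adipsin, fell from 11565 ± 1441 to 578 ± 64.3 CPM (log2 fold change -4.20, adjusted p = 0.00178), and *Lep*, of leptin, rose from 1187 ± 592 to 5405 ± 1140 CPM (2.30, adjusted p = 0.0236). *Adrb3* fell by 1.85 (adjusted p = 0.0154) and *Retn* by 1.33 (adjusted p = 0.0441). The call of *Retn* was lost with a replicate block (-1.48, adjusted p = 0.0573). In *Mof*+/- no gene of any of these lists passed between the diets, where 0.0% of all genes did. With the third SD libraries exchanged, no gene of these lists, nor of the relatives, passed between the diets in *Mof*+/+ either, and without HFD *Mof*+/+ replicate 2 *Cfd* alone did.

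On SD, 7 of 20 such adipocyte genes were higher in *Mof*+/- and none lower, against 5.24% of all genes (median 0.43 against -0.0733 over all genes). None of these calls was left with the third SD libraries exchanged (median 0.0580), nor with any 1 of the SD *Mof*+/+ libraries or SD *Mof*+/- replicate 2 left out. They included *Pck1* (log2 fold change 2.71, adjusted p = 0.0459), *Lpl* (2.13, adjusted p = 0.0301), *Acsl1* (1.91, adjusted p = 0.0290) and *Fabp4* (1.79, adjusted p = 0.0375). The sum of adipocyte markers was 43512 to 64980 CPM in SD *Mof*+/- and 29240 to 35831 CPM in SD *Mof*+/+, while that of endothelial markers was 204 to 329 CPM against 1163 to 2925 CPM. Mesothelial markers summed to 202 to 389 CPM in *Mof*+/- and 40.9 to 114 CPM in *Mof*+/+, brown adipocyte markers to 3.87 to 10.2 CPM against 22.4 to 58.6 CPM, and glial markers to 45.4 to 66.0 CPM against 87.7 to 1021 CPM. Pericyte and smooth muscle markers were at 412, 3373 and 7236 CPM in the *Mof*+/- libraries and at 815 to 1309 CPM in *Mof*+/+. Their part in these values was not tested. *Srebf1* was lower (-1.57, adjusted p = 0.0404), the only positive regulator of 19 that passed, and *Zfp36*, an mRNA-decay factor, was higher (1.82, adjusted p = 0.0314), the only negative regulator of 19, and both calls were also lost in those settings.

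Immediate-early genes, which share inducing signals with *Cebpb* and *Klf4*, were higher in SD *Mof*+/- in 8 of 15 tested and lower in 0, where 5.24% of all genes passed in either direction, with a median log2 fold change of 2.06 against -0.0733 over all genes. The list had 0 calls with the third SD libraries exchanged (median 0.53), with transcript length and a replicate block, and without SD *Mof*+/+ replicate 1 or 2, 1 without SD *Mof*+/+ replicate 3 and 2 without SD *Mof*+/- replicate 2. *Fos* was at 36.5, 105 and 78.5 CPM in *Mof*+/+ and 811, 313 and 335 CPM in *Mof*+/- (3.08, adjusted p = 0.0268). *Fosb* (3.25, adjusted p = 0.0492) was at 258, 26.3 and 60.5 CPM in SD *Mof*+/- and at 8.05 to 19.1 CPM in *Mof*+/+. Without SD *Mof*+/- replicate 1, the highest library, it was 1.92 (adjusted p = 0.0643), and its call was lost with any 1 of the 6 libraries left out. *Socs3* (2.97, adjusted p = 0.0325) was at 222, 50.8 and 60.8 CPM in *Mof*+/- and was 2.04 without that library. *Ier3* (2.89, adjusted p = 0.0122) was at 43.4, 26.0 and 27.1 CPM. Of the glucocorticoid-responsive genes 1 of 14 was higher, *Dusp1* (1.59, adjusted p = 0.0314). Between the diets in *Mof*+/+, *Atf3* rose by 4.09 (adjusted p = 0.00625), whereas *Fosb* (-2.43, adjusted p = 0.0474) and *Jun* (-1.15, adjusted p = 0.0337) fell. Between genotypes on HFD no gene of these lists passed, where 0.0% of all genes did.

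The profile of each factor over the 10 libraries was compared with those of 11420 genes, by the mean absolute difference of log2 CPM after each profile was centred. The nearest to *Cebpa* was *Lipe*, the hormone-sensitive lipase gene, at 0.152, where *Cebpa* itself deviated from its mean by 0.532. *Cebpb* had *Sdc4* (0.151) and *Klf15* had *Fmo5* (0.267) as nearest genes. *Ebf1* was nearest to *Dbt* (0.146), *Lman2l* and *Nfia*, and *Ebf2* to *Slit3* (0.261), *Nudt12* and *Myh10*. *Klf4* was nearest to *Cd248* (0.259) and *Osr1* (0.293), *Rxra* to *Clock* (0.142), *Zfp423* to *Opa3* (0.173) and *Cebpd* to *Hadha* (0.132). The own deviation was 0.243 for *Cebpd*, 0.537 for *Klf4* and 1.15 for *Ebf2*, so these distances do not rank the matches across factors. *Klf5* was furthest from its nearest gene, *Ddit4l*, at 0.977 where its own deviation was 1.73. The libraries share their depth and composition across genes, so such likeness is a description.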

How the data were processed

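RNA-seq of visceral WAT was read from raw counts per gene that the authors deposited for each of 10 libraries, without normalization. The submitters' notes name STAR, featureCounts of Subread (1.5.0-p1) and GRCm38, and the annotation release and strand setting are not given in the sources used here. Symbols, exon lengths and coordinates came from GENCODE M21, with 47224 of 47937 identifiers matched once the version was dropped. The quasi-likelihood test of edgeR 4.0.16, after TMM scaling and filterByExpr, was fitted to the 2 groups of each comparison, and for the interaction to all 10 libraries, with Benjamini-Hochberg adjustment over all genes and a threshold of 0.05. An SE is the log2 fold change divided by the square root of F. Totals of 1044355 to 17171947 counts set the precision. Floors (3 counts) and 95% intervals cover counting error only. The replicates are described as biological. A p-value sets the group difference against the spread between them, which edgeR moderates over all genes.

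The factors, the other gene lists and the tests were chosen with earlier results of these data known. Named genes were all 10 factors, up to 4 genes per list and comparison with the largest change past the threshold, and the nearest profiles (mean of at least 5 CPM, prior count 1). Alternatives included DESeq2 1.42.0, other filters, length and GC corrections, and left-out libraries. The procedure was tested on simulated data with less spread between replicates than these libraries had. Their common biological coefficient of variation in edgeR was 0.457 to 0.716 over the comparisons. That test therefore does not show how many changes are found or falsely called at this spread. R 4.3.3, limma 3.58.1 and Python 3.11.15 were used.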

Additional observations from a re-analysis of the deposited data

Results flagged for a closer look

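The ratio of *Cebpa* to *Adipoq* per kb of exon went in opposite directions in parallel comparisons, with no overlap in any of them. *Mof*+/- libraries lay below *Mof*+/+ on SD (log2 difference -1.22) and above on HFD (0.44), and HFD libraries lay below SD in *Mof*+/+ (-0.56) and above in *Mof*+/- (1.10). With the third SD libraries exchanged as their headings name them, the 3 comparisons that use SD libraries overlapped (-0.24 between genotypes on SD, -0.0678 between diets in *Mof*+/+ and 0.61 in *Mof*+/-). Whether these differences differ from each other was not tested, the ratio was chosen after its values were seen, and SD *Mof*+/- is the group with *Xist* counts.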

How the results depend on the processing

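No factor was called on SD between genotypes, except *Cebpb* and *Klf4* (2 factors) without a filter on low counts, where 8.35% of all genes were called. The count of factors called between diets in *Mof*+/+ (2 as reported) was 3 with a replicate block (9.77% of all genes), which added *Cebpb*, 1 with each correction for transcript length (6.87 to 9.65%), 0 with the third SD libraries exchanged (0.0%), 0 with all 10 libraries in the fit (0.893%), and 0 to 4 with a library left out (0.384 to 14.9%). Leaving out a library gave 0 to 6 factors between genotypes on HFD, 0 to 3 between diets in *Mof*+/- and 0 to 2 for the interaction. The highest counts came without HFD *Mof*+/- replicate 2, where 47.9%, 13.8% and 17.7% of all genes were called and the first 2 counts include *Klf5*, and where the lone remaining HFD *Mof*+/- library is assumed to vary like the others.

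Over all genes, calls between genotypes on SD (727 as reported) were 2211 with DESeq2, 1840 without a filter, 1235 with at least 10 counts in every library, 428 with a replicate block, 352 with transcript length, 96 with length and block, 288 with length and GC content, 0 after the exchange, 194 with all 10 libraries, and 17 to 1026 with a library left out. Between genotypes on HFD (0 as reported) they were 209 with DESeq2, 200 with the block, 160 with length and block, 1 with all 10 libraries and 92 to 7551 with a library left out. Between diets in *Mof*+/+ (1457 as reported) they were 2990 with DESeq2, 0 after the exchange, 142 with all 10 libraries and 64 to 2230 with a library left out. Between diets in *Mof*+/- (0 as reported) they were 402 with DESeq2, 429 without a filter, 26 with at least 10 counts, 245 with the block, 1 with length, 206 with length and block, 1 with length and GC content, 189 with all 10 libraries, and 0 to 2122 with a library left out. For the interaction (14 as reported) they were 491 with DESeq2, 380 without a filter, 38 with at least 10 counts, 0 after the exchange and 4 to 3163 with a library left out. The cause was not tested.

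Of 774 values of single factors under other settings, 0 turned direction in a call, 17 gained and 14 lost one, and 57 that were not called changed sign. The exchange and left-out libraries for ratios, and all settings for the gene lists, were added after seeing the data. Same-numbered libraries of the genotypes were not paired (correlations of deviations 0.00575 to 0.0278). The depth of HFD *Mof*+/- replicate 1 (3 counts equal 2.87 CPM) limits *Klf5*, *Klf15* and *Ebf2*. *Rxra* over *Rxrb* between diets in *Mof*+/- moved from 0.89 to 0.33 and 1.46 without either HFD *Mof*+/- library.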
